A study of Homo sapiens with 45 samples.

Results

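The enzymes described here remove methyl groups from lysine 9 of histone H3 (H3K9). They were chosen by gene symbol, and 10 genes of the 28278 gene names in the count table were taken: KDM4A, KDM4B, KDM4C, KDM4D, KDM3A, KDM3B, JMJD1C, KDM1A, PHF8 and KDM7A. KDM4B was singled out because its RNA was low after depletion of HNRNPK in these same libraries. Its knockdown values are therefore given as a description without a test. Later tests of KDM4B by library kit and between control siRNA groups share libraries with that choice. All 10 genes passed the filter on low counts.

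Methylated H3K9 marks compact, silent chromatin, and much of that chromatin lies against the nuclear lamina. KDM4 enzymes use iron, oxygen and 2-oxoglutarate to take methyl groups from trimethylated and dimethylated H3K9, while KDM3A and KDM3B act on the dimethyl and monomethyl forms. KDM1A works by another chemistry, with flavin as its cofactor, and acts on lysine 4 or lysine 9 depending on its partners. Because the oxygen-using enzymes need oxygen, and because KDM4B and KDM3A are textbook targets of the hypoxia-inducible factors (HIF), genes induced by low oxygen were described beside them.

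HCT116 cells, a long-established line from a human colon carcinoma, were transfected with 25 nM siRNA and collected after 72 hours. RNA was sequenced from 4 libraries with nontargeting siRNA (siNTC5), 4 libraries with siRNA against HNRNPK, the gene of a nucleic acid binding protein that prefers C-rich strands, and 2 further nontargeting libraries named Scramble. In the siNTC5 and HNRNPK siRNA groups the TruSeq stranded mRNA kit served for replicates 1 and 2, and the Ligation kit for replicates 3 and 4. Chromatin was available as 7 domain lists, each for 1 antibody and 1 siRNA and so without replicates: lamin B1, H3K9me3 and H3K27me3 in control and HNRNPK siRNA cells, and H3K9me2 in control cells. The 2 Scramble libraries, replicates 5 and 6, were TruSeq libraries whose RNA was purified with a different kit (Qiagen RNeasy in place of Maxwell) and whose counts stand in separate tables. No allele or drug treatment is named in the labels, and the control label is the same for siNTC5 and Scramble. Nothing in the labels says that replicates were separate cultures, so p-values measure only the spread between these libraries, which may be technical.

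Total counts were 14810376 to 23633851 in siNTC5 libraries, with the highest in replicate 2, 12107280 to 15255556 in HNRNPK siRNA libraries and 55007171 to 59209169 in Scramble libraries. HNRNPK itself stood at 884 ± 78.0 CPM (a depth-scaled count, TMM; SD, n = 4) in siNTC5 libraries and at 199 ± 45.3 CPM (SD, n = 4) after its siRNA, which is 22.4% of control. The 7 colon epithelial markers were all detected and summed to 2864 to 3310 CPM in siNTC5, 4610 to 5634 CPM in HNRNPK siRNA and 4647 to 4782 CPM in Scramble libraries. The 6 fibroblast markers summed to 44.6 to 73.8, 75.5 to 122 and 32.9 to 36.3 CPM in these groups, the 5 immune markers to 17.6 to 24.4, 21.8 to 27.2 and 55.6 to 63.1 CPM, and the 4 endothelial markers to 0.827 to 1.34, 1.93 to 3.68 and 1.52 to 2.00 CPM. COL1A1 made up most of the fibroblast sum, at a mean of 60.1 CPM in siNTC5 and 97.6 CPM in HNRNPK siRNA libraries. CD68 made up most of the immune sum, at 21.3 and 23.3 CPM. Of the 7 epithelial markers 6 rose after HNRNPK siRNA, while KRT19 fell from a mean of 806 to 333 CPM. LUM, a fibroblast matrix gene, and CD3E, a T cell receptor subunit, had 0 counts in every library. The part of these markers in any result below was not tested.

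The start regions of the broadly expressed KDM4 genes KDM4B, KDM4C and KDM4A are shown first, with the core of the hypoxia-inducible factor's element marked. Any link between the number of matches and the direction of a gene was not tested. Each sequence is the 250 bases before the annotated start from RefSeq, build GRCh38.p14, forward strand, and capitals mark ACGTG or GCGTG on either strand, with overlapping matches joined. Their positions are chr19:4968863-4969112 for KDM4B, chr9:6757723-6757972 for KDM4C and chr1:43649899-43650148 for KDM4A. The starts used for KDM4C, KDM3A, JMJD1C and PHF8 lie inside the outer bounds of the annotated genes, so other starts of these genes were not searched.
KDM4B: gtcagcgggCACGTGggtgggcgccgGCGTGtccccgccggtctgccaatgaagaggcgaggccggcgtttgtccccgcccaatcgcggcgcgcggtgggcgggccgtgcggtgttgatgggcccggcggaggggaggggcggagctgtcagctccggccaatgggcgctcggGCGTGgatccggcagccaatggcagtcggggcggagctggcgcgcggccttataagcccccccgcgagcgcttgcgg
KDM4C: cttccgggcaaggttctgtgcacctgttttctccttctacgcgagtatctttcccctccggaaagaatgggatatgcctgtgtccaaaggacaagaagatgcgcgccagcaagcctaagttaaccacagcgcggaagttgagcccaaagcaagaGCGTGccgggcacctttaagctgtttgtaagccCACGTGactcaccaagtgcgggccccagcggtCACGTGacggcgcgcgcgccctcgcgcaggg
KDM4A: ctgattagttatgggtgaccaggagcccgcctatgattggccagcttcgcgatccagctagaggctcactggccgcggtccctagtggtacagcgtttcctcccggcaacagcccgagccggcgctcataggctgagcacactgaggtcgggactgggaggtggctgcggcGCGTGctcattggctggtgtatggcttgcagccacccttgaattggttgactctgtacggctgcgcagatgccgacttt

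KDM4B held 3 such stretches, starting 241, 224 and 77 bases before the start, and KDM4C also held 3, at 96, 63 and 31 bases. KDM4A held 1, at 79 bases. Of the 27305 promoters of the same length in the RefSeq table, 43.1% held at least 1 stretch and 5.61% held 3 or more. KDM1A held 2, KDM3A and KDM7A held 1 each, and KDM4D, KDM3B, JMJD1C and PHF8 held 0. Stretches that read CACGTG are also E-boxes, the letters read by MYC and its relatives. The letters CCCTCCC, searched on both strands as the core of the C-rich CT element that HNRNPK is known to bind, occurred once in KDM4B, 118 bases before the start, once each in KDM3A, KDM1A and PHF8, and in 23.6% of all promoters. A match describes letters in this window and is not evidence of binding.

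After HNRNPK depletion the KDM4 relatives moved apart: KDM4B stood at 24.4% of its control level, KDM4A rose, KDM4C fell slightly and KDM4D did not pass the test. JMJD1C, the third member of the KDM3 family, rose about as much as KDM4A. At an adjusted p under 0.05 in edgeR's quasi-likelihood test, with library kit as covariate, 71.5% of the 13933 genes tested were called (35.5% higher, 36.1% lower). Of the 9 enzymes other than KDM4B, 7 were called, 4 higher and 3 lower, a share near that background. Their median log2 fold change was 0.05, against -0.004 over all genes tested.

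**Figure D1:**
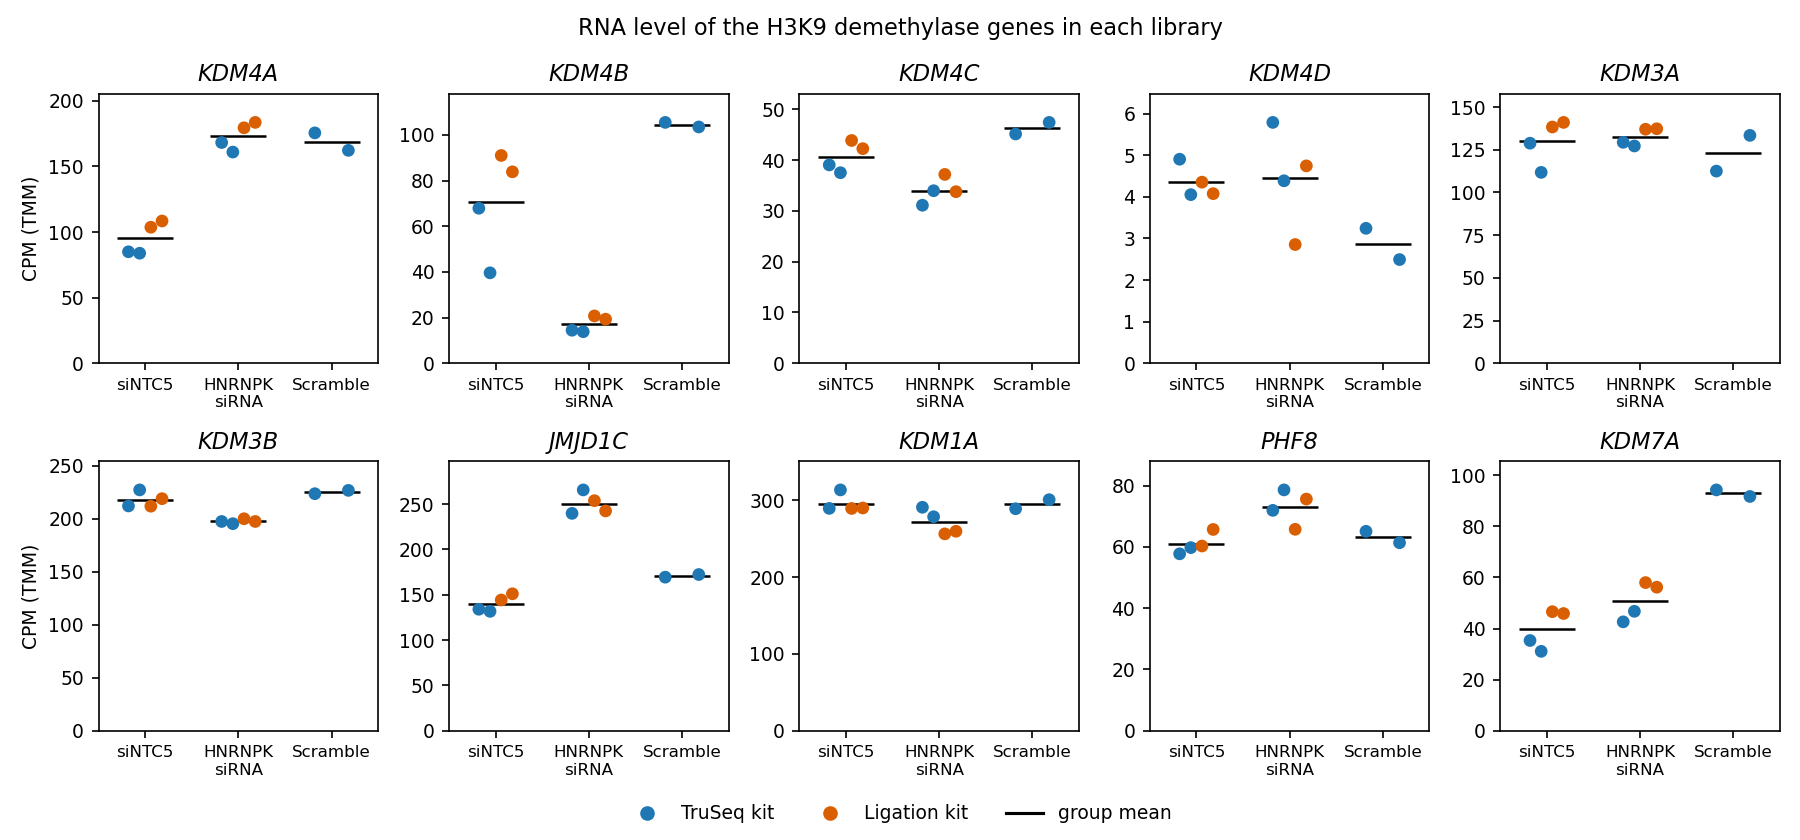
RNA level of each H3K9 demethylase gene in every library, in CPM after TMM scaling of all 10 libraries together, by group on the x axis. Points are libraries, coloured by library kit, and the bar is the group mean; KDM4B is low in all 4 HNRNPK siRNA libraries, while KDM4A and JMJD1C are high in all 4.

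KDM4B (chromosome 19, 4969113 to 5153598 in GRCh38.p14), which demethylates trimethylated H3K9, stood at 68.1, 39.6, 90.5 and 83.3 CPM in siNTC5 replicates 1 to 4. In HNRNPK siRNA replicates 1 to 4 it stood at 14.5, 13.8, 20.8 and 19.4 CPM, from 186 to 247 counts a library. All 4 depleted libraries were below every control, and siNTC5 replicate 2 was well below the other controls. The means were 70.4 ± 22.6 CPM (SD, n = 4) and 17.1 ± 3.51 CPM (SD, n = 4), and the log2 fold change was -2.02 ± 0.13 (SE). The depleted level was 24.4% of control over all libraries, 26.3% in TruSeq and 23.2% in Ligation libraries. In bulk RNA, fewer cells making a transcript and less of it per cell cannot be told apart.

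KDM4A, which acts on H3K9 and on H3K36, stood at 85.3, 83.8, 103 and 108 CPM in siNTC5 replicates 1 to 4. It stood at 169, 161, 180 and 185 CPM in HNRNPK siRNA replicates 1 to 4. Every depleted library was above every control. The means were 94.98 ± 12.2 and 174 ± 10.98 CPM (SD, n = 4 each), 0.88 ± 0.05 (SE) apart on the log2 scale (adjusted p of 1.12e-11 in edgeR). KDM4A was thus at 183% of control while KDM4B, its close relative, was at 24.4%. Within the gene body lies KDM4A-AS1, an antisense gene with 10 to 28 counts in the 8 libraries, and the strand counted is not given in the sources used here.

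KDM4C, the third broadly expressed KDM4 enzyme, stood at 39.2, 37.5, 43.6 and 42.0 CPM in siNTC5 and at 31.2, 33.9, 37.3 and 34.0 CPM in HNRNPK siRNA libraries. The depleted libraries all lay below the controls by a narrow margin, from 40.6 ± 2.75 to 34.1 ± 2.52 CPM (SD, n = 4 each). The log2 fold change was -0.25 ± 0.06 (SE; adjusted p of 0.00193 in edgeR). Within the TruSeq libraries alone the value was -0.23 and the call was lost, with an adjusted p of 0.0625. KDM4D, known mainly from testis, had 34 to 97 counts a library. It stood at 4.05 to 4.92 CPM in siNTC5 and 2.87 to 5.80 CPM in HNRNPK siRNA libraries, with overlapping groups, a log2 fold change of 0.05 ± 0.17 (SE) and an adjusted p of 0.797 in edgeR.

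The KDM3 family also divided. JMJD1C, a large KDM3 relative whose own demethylase activity is debated, stood at 134, 132, 143 and 150 CPM in siNTC5 and at 240.1, 265, 255 and 244 CPM in HNRNPK siRNA libraries. All depleted libraries were above all controls, the means were 140 ± 8.45 and 251 ± 11.3 CPM (SD, n = 4 each), and the log2 fold change was 0.85 ± 0.05 (SE; adjusted p of 2.04e-11 in edgeR). The JMJD1C gene overlaps REEP3, which had 779 to 1463 counts in these libraries, and reads of the overlap could not be divided between them here. REEP3 itself was at -0.004 ± 0.05 (SE, log2; adjusted p of 0.950 in edgeR). KDM3B, which demethylates H3K9me2, stood at 211 to 227 CPM in siNTC5 and 195 to 201 CPM in HNRNPK siRNA libraries, without overlap. The log2 difference was -0.13 ± 0.04 (SE; adjusted p of 0.00819 in edgeR), and within the Ligation libraries alone it was -0.11 with an adjusted p of 0.0663. KDM3A, a hypoxia-inducible H3K9me2 demethylase, stood at 129, 112, 138 and 140 CPM in siNTC5 and at 130, 127, 138 and 138 CPM in HNRNPK siRNA libraries. The groups overlapped, with a log2 fold change of 0.04 ± 0.05 (SE) and an adjusted p of 0.456 in edgeR.

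Of the plant homeodomain enzymes PHF8 and KDM7A, which remove the dimethyl mark, both rose against siNTC5. PHF8 stood at 57.9, 59.7, 59.96 and 65.2 CPM in siNTC5 and at 72.0, 78.5, 66.0 and 76.1 CPM in HNRNPK siRNA libraries. The groups did not overlap, though siNTC5 replicate 4 and HNRNPK siRNA replicate 3 were close, and the log2 fold change was 0.27 ± 0.06 (SE; adjusted p of 0.000690 in edgeR). KDM7A stood at 35.5, 31.1, 46.4 and 45.6 CPM in siNTC5 and at 42.7, 46.7, 58.2 and 56.6 CPM in HNRNPK siRNA libraries. Its groups overlapped over all 8 libraries but not within either kit, and the log2 difference was 0.37 ± 0.06 (SE; adjusted p of 3.41e-05 in edgeR). KDM1A, the flavin-dependent enzyme, stood at 288 to 313 CPM in siNTC5 and 258 to 292 CPM in HNRNPK siRNA libraries, with overlap. The log2 difference was -0.12 ± 0.04 (SE; adjusted p of 0.0171 in edgeR), and the call was lost with upper-quartile normalization, a minimum mean count of 50, without the kit term and in TruSeq libraries alone, where the adjusted p was 0.0846, 0.0660, 0.0918 and 0.281. It was also lost with Scramble libraries added as controls or in place of siNTC5, as given below. KDM1A overlaps LUZP1, which had 1276 to 2463 counts and was at 0.32 ± 0.05 (SE, log2; adjusted p of 5.86e-06 in edgeR). Of the 9 enzymes, 5 had groups that did not overlap, 3 above and 2 below, against 56.5% of all genes tested.

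The knockdown effect was compared between the library kits by an interaction term, for which 0.129% of genes passed. None of the 10 enzymes passed in edgeR, and 1 had an unadjusted p under 0.05 (KDM4A, 0.0462, adjusted 0.415). The DESeq2 Wald test, which gave no adjusted p for KDM4D, also called 0. For KDM4B the effect in Ligation libraries minus that in TruSeq libraries was -0.20 ± 0.26 (SE, log2). This value is a description, since KDM4B was chosen on these libraries.

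The kits themselves gave different levels of 4 enzymes, all higher in Ligation libraries, where 28.5% of all genes were called and 15.2% were higher. KDM4B differed by 0.63 ± 0.12 (SE, log2; adjusted p of 0.000866 in edgeR), KDM7A by 0.42 ± 0.06 (0.000118), KDM4A by 0.23 ± 0.05 (0.00132) and KDM3A by 0.16 ± 0.05 (0.0243). The low siNTC5 replicate 2, a TruSeq library, bears on the first of these: without it the KDM4B difference was 0.42, and without siNTC5 replicate 1 it was 0.87. The KDM3A call was lost without siNTC5 replicate 2, 3 or 4 or HNRNPK siRNA replicate 2, and in control libraries alone (0.21, adjusted p of 0.0872). Kit and anything else that set replicates 1 and 2 apart from replicates 3 and 4 cannot be told apart.

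**Figure D2:**
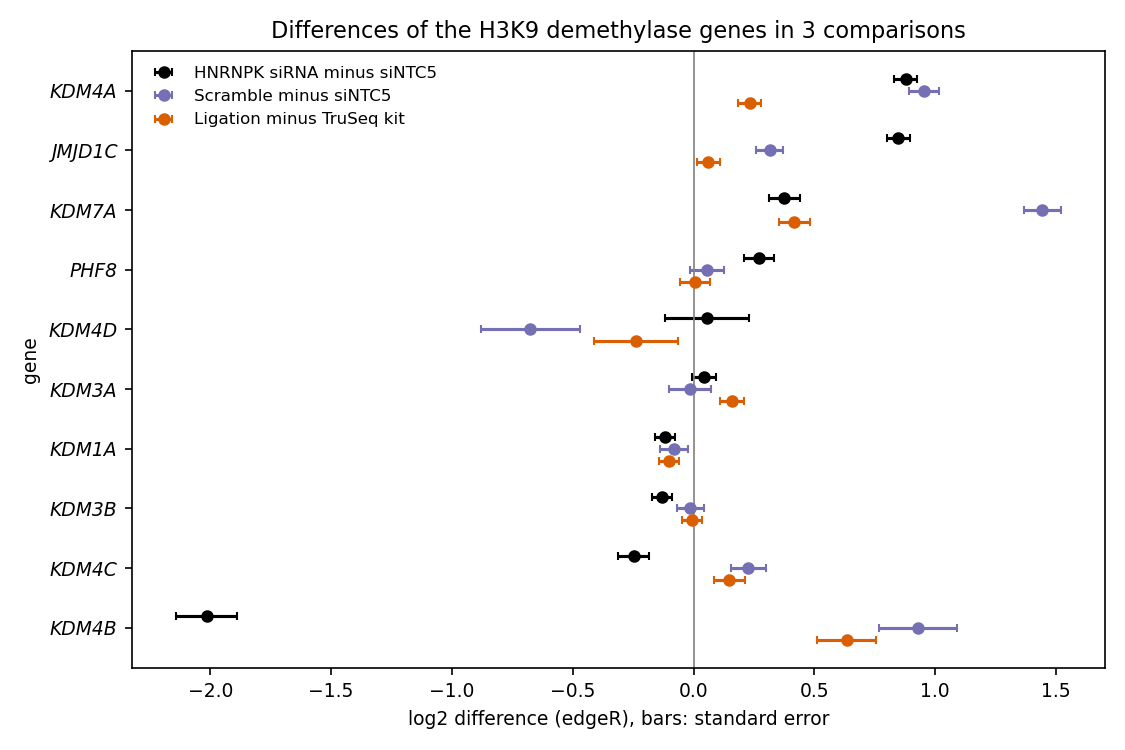
Log2 differences of the 10 H3K9 demethylase genes on the x axis, with standard errors as bars, for HNRNPK siRNA against siNTC5, Scramble against siNTC5 and Ligation against TruSeq kit, from edgeR. KDM4A and KDM7A are higher in Scramble libraries than in siNTC5 libraries by as much as, or more than, in HNRNPK siRNA libraries.

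The Scramble libraries give a further set of cells with nontargeting siRNA, and several enzymes differed between the control groups. This comparison shares the siNTC5 libraries with the knockdown comparison, so the values are set side by side only. With all libraries scaled together, KDM4B stood at 106 and 104 CPM in Scramble replicates 5 and 6, above every siNTC5 library and every HNRNPK siRNA library. KDM4A stood at 176 and 162 CPM, within the range of the HNRNPK siRNA libraries and above every siNTC5 library. KDM7A stood at 94.3 and 91.7 CPM, above all libraries of both other groups. JMJD1C stood at 169 and 172 CPM, between the siNTC5 and the HNRNPK siRNA libraries.

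In edgeR, 68.6% of the 14263 genes tested differed between Scramble and siNTC5 libraries, 35.1% higher and 33.5% lower. Of the 10 enzymes 6 did, 5 higher and 1 lower, and the same 6 had groups that did not overlap, against 69.7% of genes. The log2 differences were 1.44 ± 0.08 (SE) for KDM7A, 0.95 ± 0.06 for KDM4A, 0.93 ± 0.16 for KDM4B and 0.31 ± 0.06 for JMJD1C. Their adjusted p in edgeR were 4.02e-09, 3.07e-08, 0.000257 and 0.000263. Both Scramble libraries were TruSeq, so with kit in the model the differences rest on siNTC5 replicates 1 and 2. Means of Scramble over all 4 siNTC5 libraries were 2.34 for KDM7A, 1.77 for KDM4A, 1.48 for KDM4B and 1.22 for JMJD1C. KDM4C was higher by 0.23 ± 0.07 (SE; adjusted p of 0.0157), a call lost without Scramble replicate 6 or siNTC5 replicate 2, with upper-quartile normalization (0.14, adjusted p of 0.101), with no kit term (0.15, adjusted p of 0.158) and with unscaled totals (0.04, adjusted p of 0.602). KDM4D was lower by -0.68 ± 0.20 (SE; adjusted p of 0.0105), a call lost without Scramble replicate 6 or siNTC5 replicate 1. The KDM4B difference was 0.57 without siNTC5 replicate 2 and 1.35 without siNTC5 replicate 1, and with no kit term it was 0.53 with an adjusted p of 0.0965. The count tables also differ by gene: EHMT2, an H3K9 methyltransferase, had 0 to 6 counts in the 8 libraries of the first table but 5911 and 5386 in the Scramble libraries. Of the shared names, 213 had at most 10 counts in each of the 8 libraries and at least 1000 in both Scramble libraries, and 1 had the reverse; none of the 10 enzymes was among them. Whether the gene models differ between the tables, and what part that has in the enzymes' Scramble values, was not tested. Purification kit, depth, count table and any difference in the control siRNA cannot be told apart here.

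The choice of control therefore decided some knockdown values. With the Scramble libraries in place of siNTC5, an alternative added after the data were seen, the log2 fold change of KDM4A was -0.03 with an adjusted p of 0.597 in edgeR, and that of KDM7A was -1.05 with an adjusted p of 1.08e-15. In the same comparison KDM4B was at -2.88, KDM4C at -0.50, KDM3B at -0.19, JMJD1C at 0.57 and PHF8 at 0.25. Each of these went in the same direction as against siNTC5. KDM4D, not called against siNTC5, was called there at 0.83 (adjusted p of 0.0013), while KDM1A was not, at -0.05 (adjusted p of 0.412). All Scramble libraries were TruSeq, so with kit in the model these values rest on HNRNPK siRNA replicates 1 and 2. Means of all 4 HNRNPK siRNA libraries over Scramble were 0.163 for KDM4B, 1.02 for KDM4A, 0.547 for KDM7A and 1.55 for KDM4D. The KDM4D libraries of these 2 groups overlapped. With the Scramble libraries added to the siNTC5 controls, 4 of the 9 enzymes were called instead of 7. There KDM4A was at 0.55 with an adjusted p of 0.0812, KDM7A at -0.15 with an adjusted p of 0.747 and KDM1A at -0.11 with an adjusted p of 0.0838. The rise of KDM4A and of KDM7A thus held against siNTC5 alone. The low KDM4B level, the rises of JMJD1C and PHF8 and the small falls of KDM4C and KDM3B were present against either control.

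The hypoxia-induced genes were low in the same libraries as KDM4B. Of 18 such genes, all tested, 0 rose and 17 fell after HNRNPK siRNA, beside 35.5% and 36.1% of all genes. Their median log2 fold change was -0.73 against -0.004 over all genes tested. The list was chosen with earlier results of these data known, so these values are a description. PFKFB4, which makes an activator of glycolysis, stood at 127 ± 9.29 CPM in siNTC5 and 17.0 ± 2.73 CPM (SD, n = 4 each) in HNRNPK siRNA libraries and changed by -2.89 ± 0.08 (log2, SE; adjusted p of 7.29e-15 in edgeR). ANKRD37 changed by -2.08 (adjusted p of 2.95e-09), NDRG1, a stress-response gene, by -2.003 (2.21e-12) and EGLN3, a prolyl hydroxylase that marks hypoxia-inducible factor for destruction, by -1.72 (4.95e-10). KDM3A, likewise known as a hypoxia-inducible demethylase, did not pass the test, as given above.

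In siNTC5 replicate 2 KDM4B was -0.76 from the siNTC5 mean on the log2 scale. There 16 of the 18 hypoxia-induced genes were below their own mean, with a median of -0.21. How many of all genes lay below their mean in that library was not counted. The other controls did not follow the same order: in siNTC5 replicates 1, 3 and 4 KDM4B was at 0.01, 0.43 and 0.32. The hypoxia median was at 0.10, 0.06 and 0.04 in these libraries. In HNRNPK siRNA replicates 1 to 4 KDM4B was at -2.21, -2.28, -1.69 and -1.80, and the hypoxia median at -0.73, -0.72, -0.77 and -0.66. In Scramble replicates 5 and 6 KDM4B was at 0.65 and 0.62, and the hypoxia median at 0.39 and 0.60. Across Scramble against siNTC5, 12 of the 18 hypoxia-induced genes were higher and 2 lower, beside 35.1% and 33.5% of all genes. The 2 lower genes were PFKFB4 at -0.47 and ANKRD37 at -0.70 (adjusted p of 0.000625 and 0.00457 in edgeR). NDRG1 was higher at 1.41 and EGLN3 at 0.56 (adjusted p of 3.44e-06 and 0.000923). KDM3A stayed between -0.21 and 0.12 in all 10 libraries. The part of the hypoxia-induced genes in the KDM4B level was not tested.

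**Figure D3:**
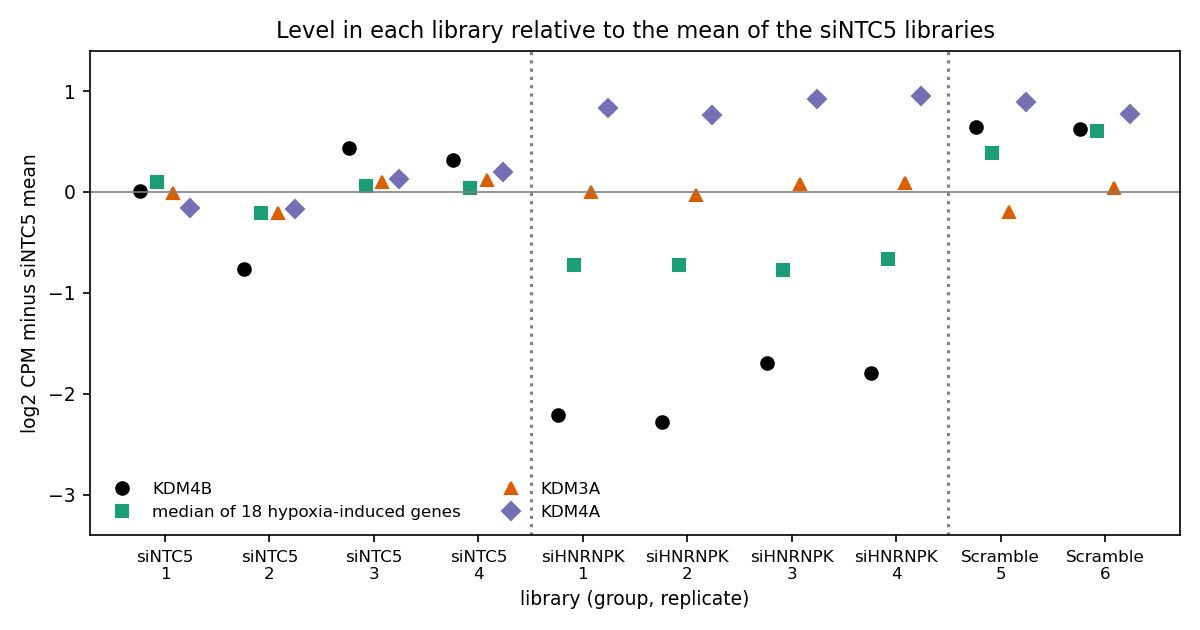
Log2 CPM in each library minus the siNTC5 mean, on the y axis, for KDM4B, KDM3A, KDM4A and the median of the 18 hypoxia-induced genes, with libraries of the 3 groups along the x axis. KDM4B and the hypoxia median are below 0 in siNTC5 replicate 2 and all 4 HNRNPK siRNA libraries, and above 0 in both Scramble libraries. KDM3A stays between -0.21 and 0.12, and in siNTC5 replicate 2 it is as low as the hypoxia median, both at -0.21.

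The genes most like KDM4B over the 8 libraries of the knockdown comparison were found by the root mean square difference of log2 CPM, each gene taken from its own siNTC5 mean, among 9997 genes with an average log2 CPM of at least 3. ID1, an inhibitor of basic helix-loop-helix factors and a target of bone morphogenetic protein signalling, was closest at 0.0880. ECI1, a mitochondrial enzyme of fatty acid oxidation, followed at 0.119, NDRG1 at 0.150, FBXL16 at 0.154 and HPCAL1 at 0.163, while the median over all genes was 1.44. ID1 stood at 104, 66.6, 156 and 127 CPM in siNTC5 and at 21.6, 21.8, 36.2 and 33.7 CPM in HNRNPK siRNA libraries. These genes were chosen on these same libraries, so their likeness to KDM4B is a description. Of the other enzymes above that average, which leaves out KDM4D, KDM4C was nearest at 1.26 and KDM4A farthest at 2.04.

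Other genes of the pathway were taken as lists. Of 15 other histone demethylases and relatives tested, 10 rose and 3 fell, with a median of 0.17, and KDM8, a JmjC-domain protein, changed most at 1.13 ± 0.17 (SE, log2; adjusted p of 8.74e-06 in edgeR), from 4.50 ± 1.17 to 9.82 ± 1.505 CPM (SD, n = 4 each). Of 16 partners of KDM1A, 5 rose and 8 fell, with a median of -0.12. HMG20B, a DNA-binding subunit of the KDM1A complex, stood at 102 ± 23.2 CPM in siNTC5 and 29.1 ± 8.35 CPM (SD, n = 4 each) in HNRNPK siRNA libraries, lower by -1.82 ± 0.09 (log2, SE; adjusted p of 3.25e-12 in edgeR).

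On the opposing side, of 12 H3K9 methyltransferases and HP1 proteins tested, 5 rose and 3 fell, with a median of 0.06. PRDM2, a methyltransferase-domain protein, rose from 28.8 ± 2.05 to 62.5 ± 5.64 CPM (SD, n = 4 each; log2 fold change 1.11, adjusted p of 1.18e-10 in edgeR). Of 14 enzymes that make or use 2-oxoglutarate, the cosubstrate of the oxygen-using demethylases, or related acids, 0 rose and 10 fell, with a median of -0.35. D2HGDH, which oxidizes D-2-hydroxyglutarate back to 2-oxoglutarate, was lowest at -1.06 (adjusted p of 1.75e-07), from 19.1 ± 3.05 to 9.01 ± 1.399 CPM (SD, n = 4 each). In Scramble against siNTC5 libraries D2HGDH was lower too, at -1.05 (adjusted p of 8.43e-06), and KDM8 and PRDM2 were lower, at -1.06 (0.00282) and -0.65 (5.87e-05), while HMG20B was higher at 0.61 (0.000270). Each list is described by its counts beside the 35.5% of all genes higher and 36.1% lower, and the 15.8% called with an absolute log2 fold change of 1 or more. No list was tested as a set.

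In the chromatin lists, KDM4B was the only gene of the 10 with at least 50% of its gene body in a domain of any list. Of its 184 kb, 70.5% lay in a lamin B1 domain called in HNRNPK siRNA cells, chr19:4995001-5125000, and 0% in the control lamin B1 list, whose nearest domain was 4076 kb away. That domain spans 130 kb and began inside the gene, so the promoter shown above lay outside it. Among 13481 tested genes with a position, 1.68% had at least 50% of the body in the knockdown lamin B1 list and none in the control list, and 2.57% had at least 50% in the knockdown list whatever the control, against 2.96% in the control list. The domain's deposited score, the authors' own value with no stated unit, was 0.562 against a list median of 0.755, at the 23.3 percentile of its list. When only domains at or above the median score were kept, 0 of the 10 enzymes remained in a lamin B1 domain.

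H3K9me3 domains, the mark that the KDM4 enzymes remove, reached 2 of the enzymes' genes in HNRNPK siRNA cells and 0 in control cells. The list grew from 895 to 1996 domains, and 5.25% of tested genes had any base in the knockdown list and none in the control list. KDM3A had 23.3% of its body in a domain at chr2:86365001-86450000, which also holds its annotated start region at chr2:86441121-86441370. KDM1A had 16.4% of its body in a domain at chr1:22955001-23030000, which holds the start of the gene at 23019468. Their scores were 0.588 and 0.709, against a list median of 0.709. In control cells the nearest H3K9me3 domain lay 12.3 kb from KDM3A, with a score of 0.939, and 2939 kb from KDM1A. KDM3A did not pass the test for RNA, and KDM1A was lower by 0.12 on the log2 scale, as given above.

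No H3K9me3 domain of either list reached KDM4B, whose nearest was 1731 kb away in control and 321 kb in HNRNPK siRNA cells. KDM4C had 1.24% of its body in an H3K27me3 domain in both lists. Every other pairing of an enzyme gene with a list, H3K9me2 included, gave a cover of 0%. Of the tested genes, 1.2% had at least 50% of the body in H3K9me2 domains, 2.94% and 5.9% in H3K9me3 domains of control and knockdown cells, and 9.84% and 8.41% in H3K27me3 domains. With 1 list per condition, the domain differences have no replicate check, and the depth behind the lists is unknown.

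**Figure D4:**
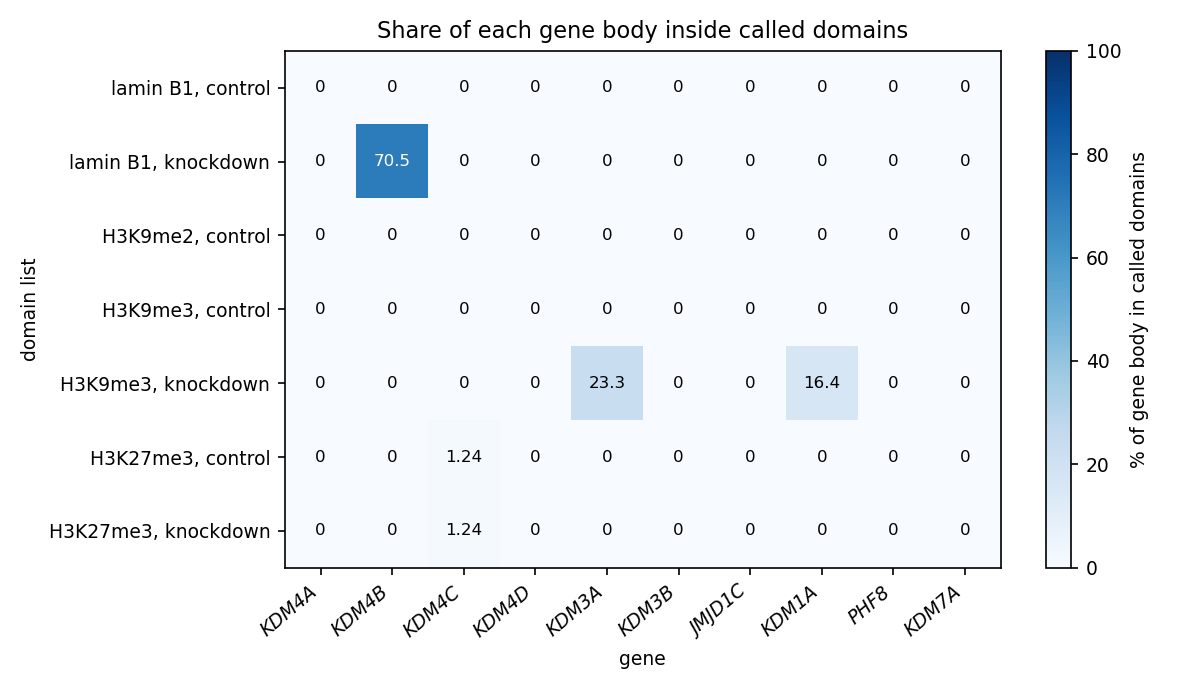
Share of each H3K9 demethylase gene body, in percent, that lies inside called domains, with genes along the x axis and the 7 domain lists along the y axis. Only KDM4B in the knockdown lamin B1 list exceeds 50%, at 70.5%.

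Some genes near KDM4B also fell after HNRNPK siRNA. Within 250 kb, 6 other genes were tested, of which 0 rose, 4 fell and 2 did not pass, with a median log2 fold change of -0.34, beside the 71.5% of all genes called and 36.1% lower. PLIN3, a lipid droplet protein, was at -0.80 ± 0.06 (SE; adjusted p of 5.72e-10 in edgeR), PTPRS, a receptor phosphatase, at -0.49 (1.47e-07), UHRF1, a protein that reads methylated H3K9 and hemimethylated DNA, at -0.44 (9.78e-06) and DPP9 at -0.24 (0.000179). FEM1A at 0.07 and TICAM1 at -0.20 did not pass. These genes were named after their values were seen. Within the same distance of KDM4A 1 gene rose, 2 fell and 3 did not pass, and the neighbour PTPRF, another receptor phosphatase, was at -1.51 while KDM4A itself was at 0.88.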

How the data were processed

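RNA was measured in 10 libraries and chromatin in 7 domain lists; 45 samples are labelled in all. The authors deposited raw counts per gene name, as whole numbers. Per the submitters' processing notes the tools were STAR 2.7.1a, featureCounts and Subread 2.0.6, with hg38 (hg19 and hg38 for Scramble, where DESeq2 is also named), and fastp 0.23.2, Bowtie2 2.5.1 and deepTools 3.1.3 for ChIP. The annotation, the strand counted, the domain caller, the input handling and any pooling are not given in the sources used here. Each deposited domain carries a score from the authors, with no unit named. Domain lists were read as GRCh38. Of 28278 names, 26987 (95.4%) matched a RefSeq position, and 25527 names are shared with the 27135 of the Scramble tables. All 10 enzymes matched the promoter table.

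Counts were filtered with filterByExpr, scaled by TMM and tested in edgeR 4.0.16 (limma 3.58.1, R 4.3.3) with the quasi-likelihood test and kit in the model; Benjamini-Hochberg adjustment ran over all genes, with a threshold of 0.05. DESeq2 1.42.0 was run as an alternative. Scramble was compared with siNTC5 on shared names, also with kit in the model. Both Scramble libraries were TruSeq, so the Ligation libraries bear only on the kit term and the spread. A prior count of 2 was used for log2 CPM in the library patterns. A gene was placed in a domain from a cover of 50% of its body. Named genes were the 10 enzymes, list genes past the threshold whose log2 fold change was 1 or more in size (at most 4 a list), the 5 genes most like KDM4B, and neighbours. The steps were tested on simulated data. Python 3.11.15, with matplotlib 3.10.9, numpy 2.4.6 and pandas 2.3.3, served for tables and plots. The enzymes and lists were chosen with earlier results of these data known.

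Same-numbered siNTC5 and HNRNPK siRNA libraries share a library kit per the labels. Across genes, which are not independent, their deviations from the group means correlated at 0.1004 (replicate 1), 0.425, 0.337 and 0.265 (replicate 4). Within a kit the correlations were 0.058 and 0.009. The other alternatives were size factors of DESeq2, upper-quartile normalization, the DESeq2 Wald test, a minimum mean count of 50 or no filter, the fit without kit, a replicate block, Scramble as added controls, single kits, control libraries alone, each library left out, and, for domains, any overlap, 10 kb flanks, scores at or above the median and lengths of at least 100 kb. Unscaled library totals and Scramble in place of siNTC5 were added after the data were seen.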

Additional observations from a re-analysis of the deposited data

Results flagged for a closer look

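KDM1A stood at 313 CPM in siNTC5 replicate 2, apart from the other 3 siNTC5 libraries at 288 to 291 CPM. Its gap to the nearest library was 0.899 of the group's range, above Dixon's critical value for 4 samples. Of 20 groups examined, 1 passed it, and chance alone flags about 1 in 20. The same library had the highest total count and the lowest KDM4B level among the siNTC5 libraries. Without it the log2 fold change of KDM1A was -0.10, and the enzyme was still called in edgeR.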

How the results depend on the processing

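The count of 7 called enzymes in the knockdown comparison was 7 in every fit that left out 1 library. It was 6 with upper-quartile normalization, a minimum mean count of 50, no kit term, Ligation libraries alone or Scramble in place of siNTC5. In TruSeq libraries alone it was 5, and with the Scramble libraries added as controls it was 4. The cause was not tested. With the replicate block in place of kit 7 enzymes were called, and no enzyme's call changed; 9872 genes were called against 9968. Leaving out 1 library gave 3 to 5 enzymes for the kit difference and 4 to 6 for Scramble against siNTC5, against 4 and 6.

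For domains, the count was 0 in place of 1 in the knockdown lamin B1 list with scores at or above the median, which keeps fewer domains. With any overlap it was 2 in place of 0 for H3K9me3 in knockdown cells and 1 in place of 0 for H3K27me3 in each condition, since that rule needs less cover.

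Directions against siNTC5 turned for KDM7A at -0.15 with Scramble added and at -1.05 with Scramble in its place, and for KDM4A at -0.032 with Scramble in its place. The other values that turned were not called in either fit. In the knockdown comparison these were KDM4D and KDM3A, at -0.13 and -0.019 in Ligation libraries alone, and from -0.090 to 0.19 and from -0.013 to 0.072 with 1 library left out. For the kit difference KDM3B was at 0.0012 with a mean of at least 50 counts and PHF8 at -0.0082 with no filter and -0.0064 with unscaled totals; with 1 library left out they ranged from -0.025 to 0.018 and from -0.038 to 0.054. For Scramble against siNTC5, KDM3A was at 0.0040 with size factors of DESeq2, 0.0031 in the DESeq2 Wald test, 0.024 with no filter and 0.0055 with TruSeq controls alone, and KDM3B at 0.0047, 0.0046, 0.025 and 0.0069 and at 0.010 with no kit term. Their values with 1 library left out ranged from -0.14 to 0.11 and from -0.060 to 0.034. PHF8 was at -0.027 with upper-quartile normalization and -0.13 with unscaled totals. Unscaled totals moved the median of all genes in that comparison to -0.18, with KDM4C at 0.04 relative to the unscaled zero. The cause was not tested.

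Of the pathway lists, the other demethylases gave 13 calls, 8 in TruSeq libraries alone and 6 with Scramble added, and the H3K9 methyltransferases and HP1 proteins gave 8, with 5, 4 and 5 under no kit term, Scramble added and TruSeq alone. The 17 hypoxia-induced genes stayed at 17 with any 1 library left out. Low counts limit KDM4D, and 2 Scramble libraries limit every comparison with that group.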
